A study of Mus musculus with 6 samples.

Results

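The genes described here are 8 that set the supply of GABA and the chloride gradient it acts on: Gad1 and Gad2 for synthesis, Slc32a1 for loading into vesicles, Slc6a11 for uptake, Abat and Aldh5a1 for breakdown, and Slc12a2 and Slc12a5 for chloride transport. They were chosen by name and matched by symbol, and all 8 were found among the 53379 gene identifiers of the series. The material was cerebral cortex of mice of strain C57BL/6 aged 2 months, with 3 libraries from wild type animals (replicates 1, 3 and 4) and 3 labelled GTF2ird1-/- (replicates 5, 6 and 7), the homozygous mutant of a transcription factor gene of the Williams syndrome region. The series title names Gad2+ neurons. The sources used here do not state how the cells were isolated, which allele marked them, which part of Gtf2ird1 was altered or whether the replicates were different animals. The p-values therefore reflect only how these 6 libraries spread, which may be technical.

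GABA is the main inhibitory transmitter of the adult cortex. Neurons make it from glutamate with glutamate decarboxylase, which exists as the widely distributed GAD67 (from Gad1) and the form enriched at terminals, GAD65 (from Gad2). The vesicular transporter VGAT (from Slc32a1) fills vesicles with it, transporters of the cell membrane on neurons and astrocytes take it back up, and GABA transaminase (from Abat) and succinic semialdehyde dehydrogenase (from Aldh5a1) turn it into succinate in mitochondria. Whether an opened GABA-A receptor inhibits depends on intracellular chloride, which NKCC1 (from Slc12a2) imports and KCC2 (from Slc12a5) exports. Immature neurons are known for high NKCC1 and low KCC2, and KCC2 is largely a protein of mature neurons.

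The libraries held 13627501 to 30544144 counts on genes. Levels are CPM, counts scaled to a common library total after TMM normalization. A count of 0 allows a level of up to 3 counts, or 0.0982 to 0.22 CPM by library on library totals before that normalization. Gtf2ird1 itself measured 23.4, 31.5 and 52.7 CPM in wild type against 49.7, 40.6 and 48.8 CPM in the knockout-labelled libraries. Its whole-gene count was not lower there and does not check the labels, so each direction below is between libraries as labelled. Against the name of Gad2+ neurons, 14 microglia markers summed to between 29493 and 47253 CPM per library, beside between 304 and 1273 CPM for 17 GABAergic neuron markers. Within the GABAergic list the transcription factor gene Dlx1 (47.2 to 182.3 CPM) and the long noncoding RNA gene Dlx6os1 (100.1 to 447.8 CPM) were detected in every library. The markers of mature interneuron classes Sst (0.0571 to 0.843 CPM) and Vip (0.0906 to 2.7 CPM) were above 0 in every library, at lower CPM not adjusted for length. Their lowest values, Sst in wild type replicate 4 and Vip in wild type replicate 3, lie under 3 counts (0.181 and 0.22 CPM there, before TMM normalization). Pvalb, another such marker, had 0 to 0.196 CPM and was at 0 in 2 libraries. The 8 immature neuron markers summed to between 790.1 and 2129 CPM and the 8 pan-neuronal markers to between 259.5 and 937.6 CPM. Wild type replicate 4 had the least astrocyte RNA (318.6 CPM summed over 14 markers) and wild type replicate 3 the next least (701.2 CPM), against 3703 to 6746 CPM in the other 4 libraries. Of gene counts, ribosomal RNA took 18.6% (wild type replicate 3), 6.77% (knockout replicate 6) and 0.867% to 4.06% in the rest.

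The starts of Gad1, Gad2 and Slc32a1 are shown because these 3 genes kept nearly the same order over the libraries while Gad1 and Gad2 differed in their proportion. The windows are 300 bases of RefSeq promoter sequence in GRCm38.p6, from 250 bases before to 50 bases after the annotated start, all on the plus strand: chr2:70561879-70562178 for Gad1, chr2:22622077-22622376 for Gad2 and chr2:158610508-158610807 for Slc32a1. The RefSeq starts of Gad1 and Gad2 lie inside the gene spans given by GENCODE. Capitals mark GGATTA, a core to which GTF2IRD1 is known to bind, searched on both strands (TAATCC on the other).
Gad1: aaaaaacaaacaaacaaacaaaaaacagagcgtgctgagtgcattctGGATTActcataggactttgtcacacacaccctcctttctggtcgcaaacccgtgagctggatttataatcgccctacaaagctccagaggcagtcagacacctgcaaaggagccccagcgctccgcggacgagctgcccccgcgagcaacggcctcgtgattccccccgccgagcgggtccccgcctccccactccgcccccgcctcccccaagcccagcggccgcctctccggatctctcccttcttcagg
Gad2: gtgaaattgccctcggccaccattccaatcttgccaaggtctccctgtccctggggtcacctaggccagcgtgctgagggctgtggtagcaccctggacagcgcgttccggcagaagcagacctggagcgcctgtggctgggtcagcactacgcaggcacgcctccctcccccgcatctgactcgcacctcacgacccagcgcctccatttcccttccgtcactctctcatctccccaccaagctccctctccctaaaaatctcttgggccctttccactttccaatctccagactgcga
Slc32a1: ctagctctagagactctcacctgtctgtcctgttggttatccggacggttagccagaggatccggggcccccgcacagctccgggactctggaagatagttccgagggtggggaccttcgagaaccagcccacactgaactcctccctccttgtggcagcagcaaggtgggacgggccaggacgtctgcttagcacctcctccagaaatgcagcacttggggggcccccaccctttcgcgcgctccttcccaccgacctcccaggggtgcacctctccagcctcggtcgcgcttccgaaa
The motif occurred in 1 of the 7 windows listed for 6 of the 8 genes, in Gad1, starting at base 48 of the window. Of all 32851 promoter windows of this length 7.06% held it, and a match describes these letters only. Guanine and cytosine made up 60% of the Gad1 window, 61.3% of the Gad2 window and 63.3% of the Slc32a1 window, against a median of 52.7% over all windows, and the Gad1 window held 21 CG dinucleotides, the Gad2 window 14 and the Slc32a1 window 17, against a median of 7. Slc12a5 has 2 annotated starts with a window each, at chr2:164960596-164960895 and chr2:164967738-164968037, which the gene-level counts do not tell apart.

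None of the 8 genes passed the test between genotypes. With edgeR, 0 of 8 had an adjusted p under 0.05 and 0 of 8 an unadjusted p under 0.05, where 0.00581% of the 17221 genes tested passed after adjustment and 7.25% before it. DESeq2 also called 0 of 8 (0.124% of all genes), with 2 of 8 at an unadjusted p under 0.05 (9.18% of all genes), and limma-voom 0 of 8 (0.00581%), with 3 of 8 (8.62%). All 8 passed the filter on low counts, and 7 had a positive log2 fold change (knockout over wild type), against 46.3% of all genes tested. Their median was 0.61, beside -0.03 over all genes tested. Leaving out wild type replicate 3, 1 or 4 moved it to 0.33, 0.94 or 1.13, with 6 of 8 positive each time. The 3 largest log2 fold changes among them were in uptake and breakdown, at 1.90 for Slc6a11, 1.29 for Abat and 0.95 for Aldh5a1. The plot of CPM per library shows how far the libraries of each group spread.

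**Figure D1:**
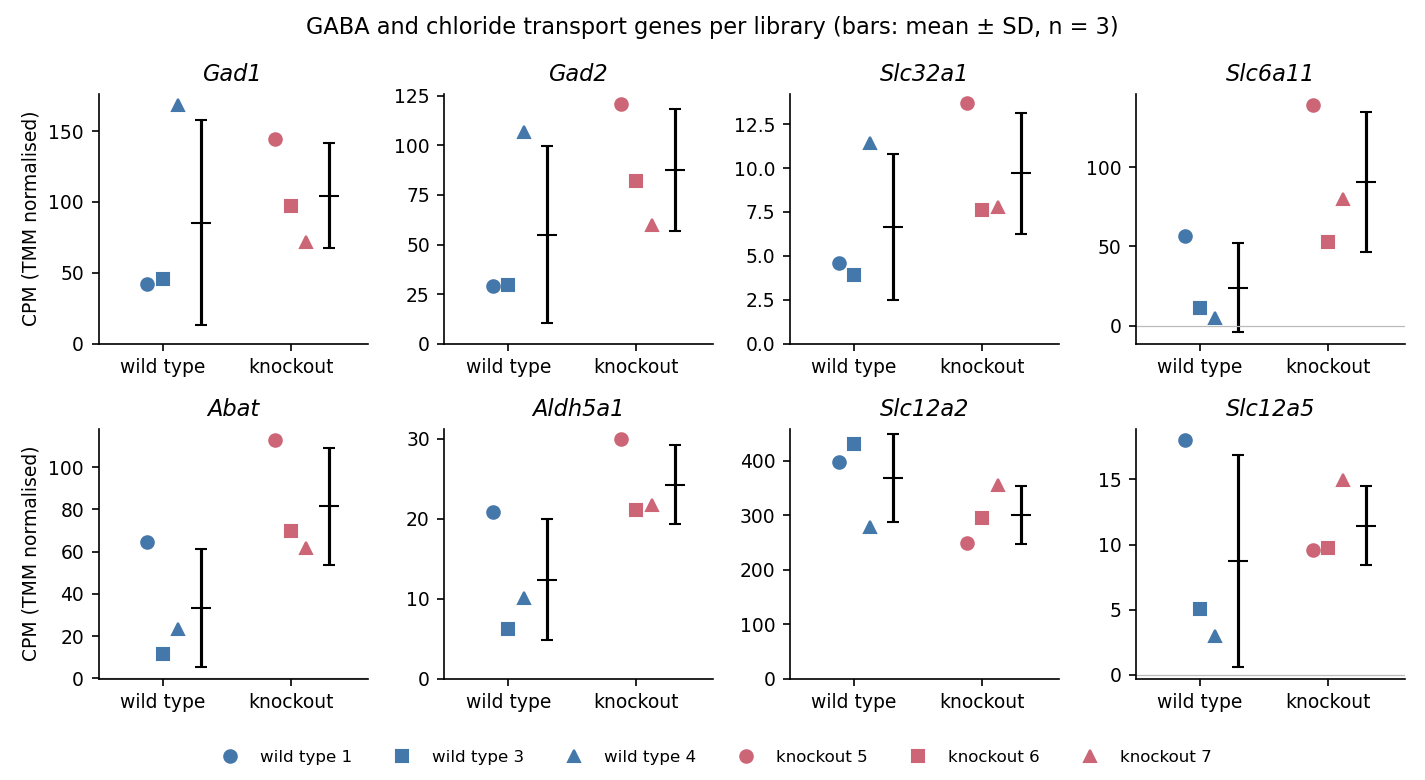
CPM of each of the 8 genes in each library, with wild type in blue and libraries labelled knockout in red, 1 symbol per replicate, and mean ± SD of the 3 libraries as black bars (linear axes from 0 or below). Gad1, Gad2 and Slc32a1 are high in wild type replicate 4, whereas Slc6a11, Abat and Aldh5a1 are high in wild type replicate 1 among the wild type libraries.

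Neither synthesis gene passed the test, and both spread widely within wild type. Gad1 (ENSMUSG00000070880.10, chromosome 2, 70553072 to 70602014, plus strand) had 42.0, 45.5 and 168.7 CPM (wild type replicates 1, 3 and 4) against 144.5, 97.5 and 71.5 CPM (knockout replicates 5, 6 and 7), the order in which values are given throughout. Wild type replicate 4 was the highest of all 6 libraries and the other wild type libraries the lowest, so all knockout libraries lay within the wild type range. By edgeR, it had a log2 fold change of 0.29 ± 0.55 (SE, adjusted p = 0.877), with a fold of 1.22 and a 95% interval from 0.498 to 3.001. Gad2 (ENSMUSG00000026787.3, chromosome 2, 22622205 to 22693874, plus strand), the gene by which the title defines the cells, had 29.0, 29.5 and 106.6 CPM (wild type) against 120.6, 82.0 and 59.8 CPM (libraries labelled knockout). Here knockout replicate 5 was above every wild type library, and knockout replicates 6 and 7 lay between wild type replicates 3 and 4. In edgeR this was a log2 fold change of 0.67 ± 0.54 (SE, adjusted p = 0.712), with a 95% interval of the fold from 0.667 to 3.78. Leaving out wild type replicate 4 moved Gad1 to 1.26 and Gad2 to 1.59 on the log2 scale (edgeR adjusted p = 0.157 and 0.143), and without wild type replicate 1 they were -0.04 and 0.36.

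The proportion of the decarboxylase transcripts, unlike their levels, did not overlap between the genotypes. Gad2 made up 40.9%, 39.3% and 38.7% of Gad1 and Gad2 counts in wild type replicates 1, 3 and 4, with exact 95% binomial intervals of 38.7% to 43.1%, 36.0% to 42.7% and 37.4% to 40.1%. In knockout replicates 5, 6 and 7 it made up 45.5%, 45.7% and 45.6%, with intervals of 44.3% to 46.7%, 43.9% to 47.5% and 44.0% to 47.1%. The intervals, which cover counting error only, did not overlap between the groups. Group means were 39.6% ± 1.12 and 45.6% ± 0.0902 (SD, n = 3 each). The SD of the knockout-labelled libraries is far narrower than the counting intervals of those same libraries. It therefore does not measure how repeatable the share is. Per length of merged exons, the log2 ratio of Gad2 to Gad1 was -0.23 ± 0.07 in wild type and 0.12 ± 0.005 in knockout-labelled libraries (SD over 3 each, with the same limit), a difference of 0.35. All 3 knockout libraries were above all 3 wild type libraries, and the two-sided exact permutation p was 0.1, the smallest that 3 against 3 libraries can give (0.3 after Benjamini-Hochberg adjustment over the 3 ratios tested). For levels of single genes, 6.34% of all genes tested had every knockout library above every wild type library. How many ratios of other gene pairs separate in this way was not counted, so the separation cannot be called unusual. The difference lay between 0.32 and 0.39 when any 1 library was left out. Since it is taken within a library, scaling between libraries cannot move it. The count tables hold whole-gene sums, so which transcripts of either gene were counted is not known from them.

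**Figure D2:**
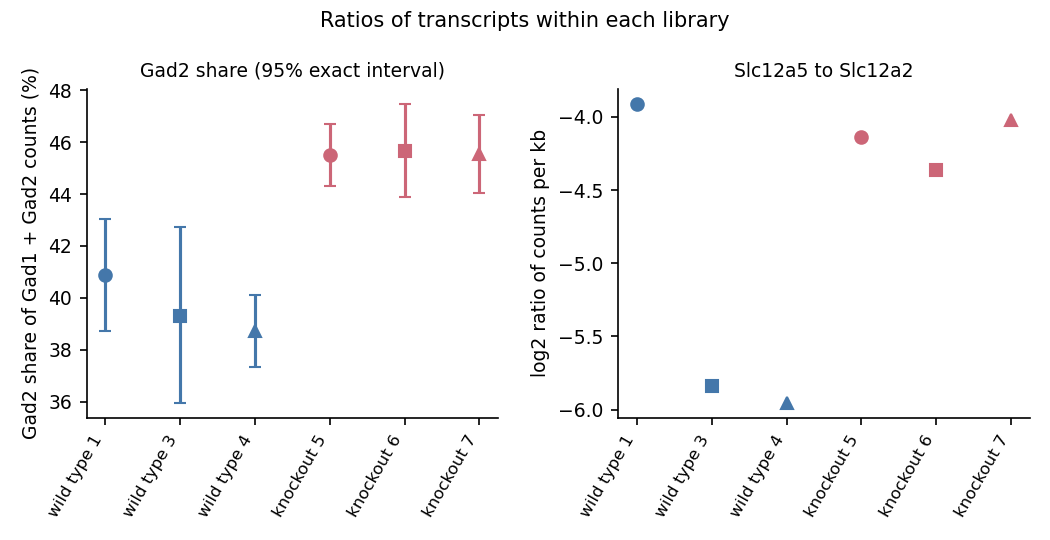
Left, share of Gad2 in the sum of Gad1 and Gad2 counts per library (%, axis not from 0) with exact 95% binomial intervals; right, log2 ratio of counts per kb of exon for Slc12a5 to Slc12a2. The Gad2 share is 38.7% to 40.9% in wild type and 45.5% to 45.7% in the libraries labelled knockout, while wild type replicate 1 lies beside the knockout libraries in the right panel.

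Slc32a1 (ENSMUSG00000037771.11, chromosome 2, 158610767 to 158615748, plus strand) is the vesicular GABA transporter gene. It had 4.59, 3.90 and 11.4 CPM (wild type, 132, 43 and 200 counts) against 13.7, 7.61 and 7.81 CPM (libraries labelled knockout), from 350, 127 and 250 counts. Knockout replicate 5 alone was above every wild type library, and wild type replicates 1 and 3 were the lowest of the 6. The edgeR fit gave a log2 fold change of 0.55 ± 0.46 (SE, adjusted p = 0.725), or 0.21 to 1.19 with 1 library left out, the highest without wild type replicate 4. Gad1, Gad2 and Slc32a1 ordered the libraries nearly alike: over the 6 libraries, which differ in composition, Pearson's r of log2 CPM was 0.98 for Gad1 with Gad2, 0.95 for Gad1 with Slc32a1 and 0.97 for Gad2 with Slc32a1 (Spearman's rho 0.94, 0.83 and 0.89).

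These 3 genes moved with the other GABAergic transcripts. The 17 GABAergic markers summed to 400.6, 304 and 1025 CPM (wild type) against 1273, 865.6 and 682.8 CPM (libraries labelled knockout), the same order as Gad2 but for the lowest pair. Relative to that sum, Gad1 and Gad2 together stood at 23.1% ± 4.77 in wild type and 20.3% ± 0.9 in knockout-labelled libraries (SD over 3 each), and Slc32a1 at 1.18% ± 0.0889 and 1.03% ± 0.137. In bulk RNA, fewer cells of a type and less RNA per cell cannot be told apart. Of the 15 GABAergic markers tested, 14 had positive log2 fold changes (median 0.58). Leaving out wild type replicate 1 or 3 moved the median to 0.28, leaving out knockout replicate 5 to 0.27 and leaving out wild type replicate 4 to 1.28, and their part in the values of Gad1, Gad2 and Slc32a1 was not tested.

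**Figure D3:**
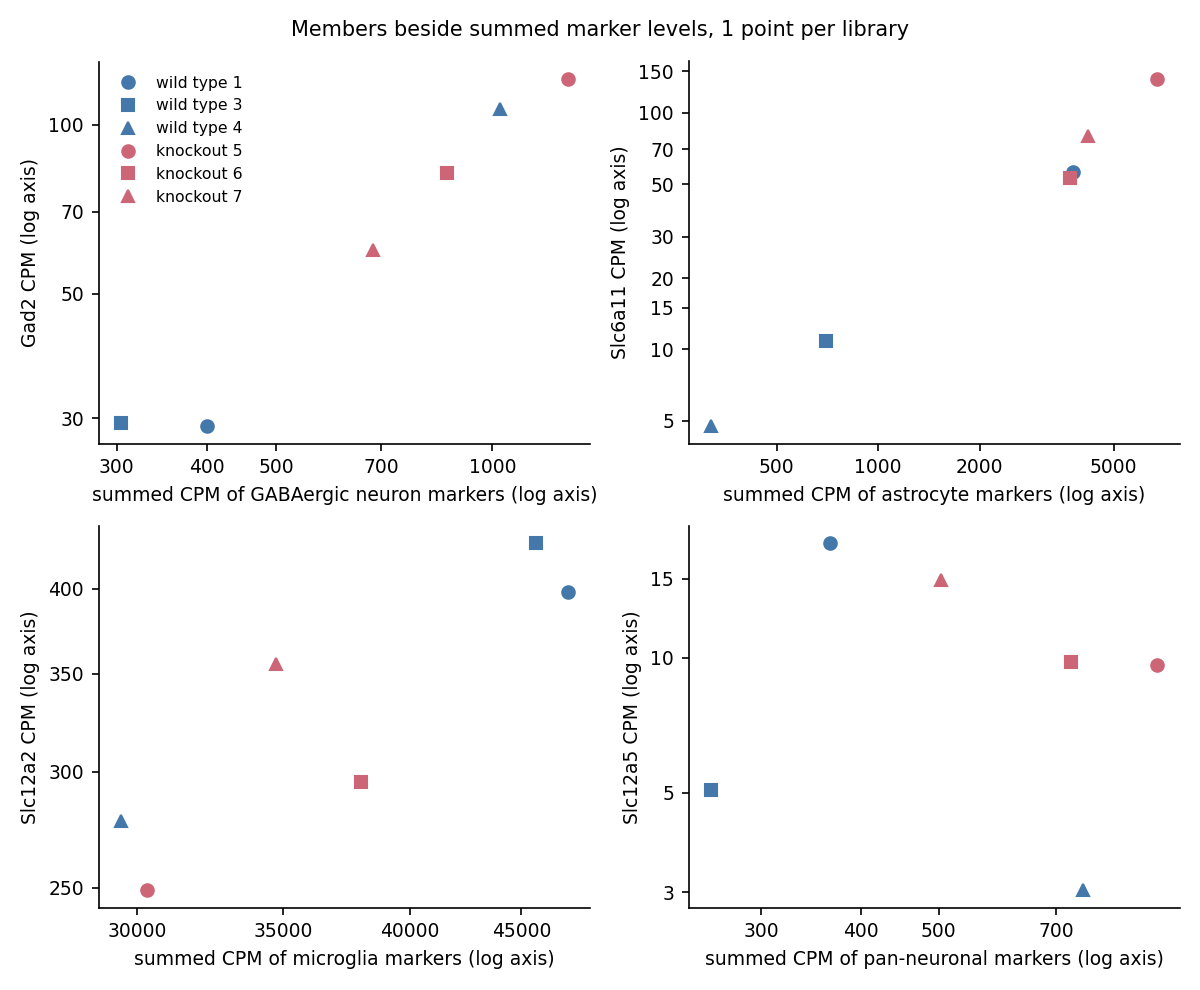
Each panel sets 1 gene's CPM against the summed CPM of a marker list, 1 point per library on log axes: Gad2 with GABAergic neuron, Slc6a11 with astrocyte, Slc12a2 with microglia and Slc12a5 with pan-neuronal markers. Slc6a11 spans 4.74 to 139.2 CPM as astrocyte markers span 318.6 to 6746 CPM, and wild type replicate 4 is the lowest library in both.

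The uptake transporter gene Slc6a11 (ENSMUSG00000030307.8, chromosome 6, 114131241 to 114249952, plus strand), which encodes GAT-3, a carrier mostly of astrocytes, varied the most. It had 56.4, 10.9 and 4.74 CPM (wild type) against 139.2, 53.0 and 79.9 CPM (libraries labelled knockout), a range of 29.4 times over the 6 libraries. Wild type replicate 1 lay above knockout replicate 6, so the groups overlapped by 1 pair. Group means were 24.0 ± 28.2 and 90.7 ± 44.1 CPM (SD, n = 3 each), and edgeR gave a log2 fold change of 1.90 ± 0.84 (SE, adjusted p = 0.637) with a fold interval from 0.955 to 14.6. Without wild type replicate 1 the log2 fold change was 3.56 and the gene passed (edgeR adjusted p = 0.0385), in a setting where 1.77% of all genes were called higher. The astrocyte markers moved with it, at 3796, 701.2 and 318.6 CPM (wild type) against 6746, 3703 and 4211 CPM (libraries labelled knockout). In all, 14 of 14 astrocyte markers had positive log2 fold changes (median 1.74, or 3.12 without wild type replicate 1, 0 called with all libraries), no marker was at 0 in every library, and in the setting without wild type replicate 1, 8 of 14 passed as higher. As a percentage of their sum, Slc6a11 stood at 1.49%, 1.55% and 1.49% in wild type and 2.06%, 1.43% and 1.90% in the libraries labelled knockout. The share thus varied far less than the level, and the part of astrocyte RNA in the difference was not tested.

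Breakdown of GABA runs through Abat and then Aldh5a1. Abat (ENSMUSG00000057880.12, chromosome 16, 8513429 to 8621568, plus strand) had 64.7, 11.5 and 23.2 CPM (wild type) against 112.9, 69.7 and 61.6 CPM (libraries labelled knockout). Wild type replicate 1 exceeded knockout replicate 7, and wild type replicates 3 and 4 were below every knockout library. By edgeR, it had a log2 fold change of 1.29 ± 0.58 (SE, adjusted p = 0.637), with a fold interval from 0.955 to 6.23. Without wild type replicate 1 it was 2.22 and passed (edgeR adjusted p = 0.0470). Aldh5a1 (ENSMUSG00000035936.6, chromosome 13, 24907579 to 24937661, minus strand) had 20.9, 6.25 and 10.04 CPM (wild type) against 29.99, 21.1 and 21.7 CPM (libraries labelled knockout). It was the 1 gene of the 8 with every knockout library above every wild type library, as 6.34% of all genes tested had. The share of all genes separated in the other direction was not counted. For Aldh5a1 the gap was 20.9 to 21.1 CPM, between wild type replicate 1 and knockout replicate 6. In edgeR this was a log2 fold change of 0.95 ± 0.41 (SE, adjusted p = 0.637), with a fold interval from 0.989 to 3.80, and without wild type replicate 1 it was 1.56 and did not pass (edgeR adjusted p = 0.0511). Genes on the opposite strand share 203 and 796 exonic bases with Aldh5a1 and had at most 43 counts in any library, against 69 to 767 for Aldh5a1. The sources used here do not state whether counting used strand.

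Abat and Aldh5a1 had Pearson's r of 0.998, the highest of any pair of members, and Spearman's rho of 0.83, below the 0.94 of Gad1 with Gad2, over the 6 libraries. In 1 library they stood apart from the astrocyte markers. Abat stood at between 1.46% and 1.88% of the astrocyte sum in 5 libraries and at 7.27% in wild type replicate 4, and Aldh5a1 at between 0.444% and 0.892% in 5 libraries and at 3.15% there. That library had the fewest astrocyte transcripts and, among wild type, the most Gad1, Gad2 and GABAergic markers. Both enzymes are known from neurons as well as astrocytes, and which cells their transcripts came from was not tested.

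The chloride importer gene Slc12a2 (ENSMUSG00000024597.10, chromosome 18) had the highest level per kb of exon of the 8 and was the only 1 with a negative log2 fold change. It had 397.8, 429.6 and 277.5 CPM (wild type) against 248.9, 295.0 and 355.4 CPM (libraries labelled knockout). Knockout replicate 5 was below every wild type library, and the other knockout libraries lay between wild type replicates 4 and 1. The edgeR fit gave a log2 fold change of -0.30 ± 0.22 (SE, adjusted p = 0.689), with a fold interval from 0.574 to 1.15, and stayed between -0.46 and -0.16 with 1 library left out. Slc12a2 ran opposite to the synthesis genes, with Pearson's r of -0.95 with Gad1, -0.97 with Gad2 and -0.96 with Slc32a1 over the 6 libraries (Spearman's rho -0.89, -0.94 and -0.94). Relative to the microglia markers, which summed to 47253, 45701 and 29493 CPM (wild type) against 30299, 38010 and 34745 CPM (libraries labelled knockout), Slc12a2 stood at 0.908% ± 0.0570 and 0.873% ± 0.131 (SD, n = 3 each). Log2 fold changes of the microglia markers were positive for 0 of 14 (median -0.27), but for 4 of 14 with library totals alone (median -0.11) and for 4 of 14 without wild type replicate 1 (-0.18). Their median was -0.16 without wild type replicate 3 and -0.45 without wild type replicate 4. The part of microglial RNA in its values was not tested.

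The chloride exporter gene Slc12a5 (ENSMUSG00000017740.17, chromosome 2, 164960802 to 164999731, plus strand) had the lowest mean level per kb of exon. It had 18.02, 5.08 and 3.03 CPM (wild type, 518, 56 and 53 counts) against 9.62, 9.77 and 14.9 CPM (libraries labelled knockout), from 246, 163 and 478 counts. The wild type group held both the highest library, replicate 1, and the lowest, replicate 4. By edgeR, it had a log2 fold change of 0.38 ± 0.61 (SE, adjusted p = 0.855), with a fold interval from 0.480 to 3.52, and ran from -0.04 without wild type replicate 4 to 1.51 without wild type replicate 1. Its order over the libraries was unlike that of the summed pan-neuronal markers, relative to which it stood at 4.93% in wild type replicate 1, 0.399% in wild type replicate 4 and between 1.03% and 2.97% in the other 4. Single markers of that list differed: Syt1, a synaptic vesicle gene, was highest in wild type replicate 1 (33.2 CPM) and lowest in wild type replicate 4 (8.22 CPM), as was Slc12a5. The glutamatergic marker Slc17a7, at 26.0, 6.34 and 2.57 CPM (wild type) against 15.7, 14.3 and 19.6 CPM (libraries labelled knockout), placed wild type replicates 1 and 4 at the same ends.

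Slc12a2 exceeded Slc12a5 in every library. In this bulk RNA the 2 transcripts need not come from the same cells, so their ratio does not describe neurons alone. Microglia markers summed to between 29493 and 47253 CPM, against between 259.5 and 937.6 CPM for pan-neuronal markers. Per kb of exon, Slc12a5 stood at 0.0665, 0.0175 and 0.0161 of Slc12a2 in wild type and 0.0568, 0.0487 and 0.0617 in the libraries labelled knockout. The log2 ratio was -5.23 ± 1.15 and -4.17 ± 0.17 (SD, n = 3 each). Wild type replicate 1 was the highest and wild type replicates 3 and 4 were the lowest, and the two-sided exact permutation p for the difference of 1.06 was 0.4 (0.4 adjusted over the 3 ratios). Leaving out 1 library moved the difference between 0.70, without wild type replicate 4, and 1.72, without wild type replicate 1.

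**Figure D4:**
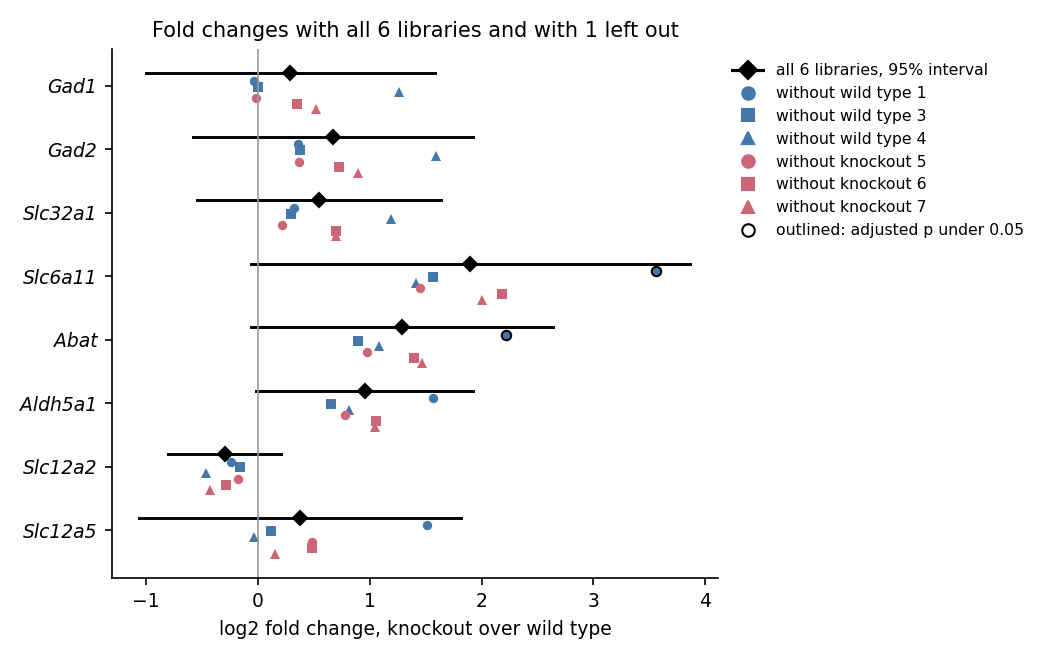
Log2 fold change of each gene, knockout over wild type, with all 6 libraries (black diamond, line for the 95% interval) and with each library left out in turn (coloured symbols, outlined where the edgeR adjusted p was under 0.05). Every black interval includes 0, and the 2 outlined symbols are Slc6a11 at 3.56 and Abat at 2.22 without wild type replicate 1.

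Per length, levels can be compared between genes. Mean CPM per kb of merged exons over the 6 libraries was 30.6 ± 6.56 for Slc12a2, 12.4 ± 6.85 for Gad1, 12.1 ± 6.58 for Gad2, 11.4 ± 9.76 for Slc6a11, 7.39 ± 4.68 for Abat, 3.25 ± 1.54 for Aldh5a1, 2.92 ± 1.36 for Slc32a1 and 1.35 ± 0.764 for Slc12a5 (SD over libraries, n = 6). Slc12a2 was above Gad1 in 6 of 6 libraries and Abat above Aldh5a1 in 6 of 6. The other neighbours in this order changed places in at least 1 library, Gad1 and Gad2 in 3 of 6. With the length of the longest transcript in place of merged exons, Gad1 stood at 26.4 and Gad2 at 12.4 CPM per kb, and Slc6a11, at 13.9, passed Gad2, so the order of neighbouring levels depends on the transcript assumed. Among 13686 tested protein-coding genes ranked per kb, Slc12a2 was between percentiles 88.6 and 94.0, Gad2 between 48.3 and 86.9, and Slc12a5 between 12.1 and 32.6.

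The genes most like each member in log2 CPM over the 6 libraries, among 13678 other tested protein-coding genes, are given as a description, since 445 to 907 genes had Pearson's r over 0.9 with a given member. Gad1 was closest to Meis2, a homeobox gene, Ypel1 and Fam210b, and Gad2 to D430019H16Rik, Igfbpl1, a marker of immature neurons, and Purg, with r of at least 0.996. Slc32a1 was closest to Gpc1, a heparan sulphate proteoglycan, Pabpn1 and Shd. Igfbpl1 had 32.3, 36.1 and 122.9 CPM (wild type) against 147.0, 92.6 and 70.6 CPM (libraries labelled knockout), the same library order as Gad2. Slc6a11 was closest to Trpm3, a cation channel, Olfr287 and Igfbp2, an insulin-like growth factor binding protein, of which Olfr287 was at most 1.21 CPM. Abat and Aldh5a1 shared Cdh11, a cadherin, and were otherwise closest to the potassium channel gene Kcnd2 and Kazn, and to the potassium channel gene Kcnq3 and Tmem132b. Slc12a2 was closest to Khk, the fructose kinase, Snx9 and Sec24d, and Slc12a5 to Etl4, Naaa and Zfp831.

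Related genes gave 0 calls as well. Of 73 genes in 7 lists, 66 were tested, and edgeR called 0 higher and 0 lower, with 7 (10.6%) at an unadjusted p under 0.05, where all genes gave 7.25%. That number was 1 of 63 without knockout replicate 5 (299 of all 17082 genes) and 19 of 66 without wild type replicate 4 (3087 of all 17991 genes), with the other single libraries left out in between. DESeq2 and limma-voom also called 0, with 7 and 10 at an unadjusted p under 0.05. Without wild type replicate 1 it called 5 higher and 0 lower, against 1.77% of all genes called higher.

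Among other transporters of GABA and related molecules, 3 of 4 tested were positive and the median log2 fold change was 0.82. The creatine transporter gene Slc6a8 had a log2 fold change of 0.50 (adjusted p = 0.637) and the taurine transporter gene Slc6a6 -0.33 (adjusted p = 0.646), both by edgeR. Slc6a12, the gene of the betaine and GABA transporter, was at most 0.487 CPM and not tested.

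Other routes to GABA and fates of succinic semialdehyde had 10 tested genes, 6 of them positive, and a median log2 fold change of 0.09. Leaving out wild type replicate 4 moved the median to -0.06 (4 of 10 positive), knockout replicate 6 to 0.0077, knockout replicate 7 to 0.17 and wild type replicate 1 to 0.35. Adhfe1, a hydroxyacid-oxoacid transhydrogenase that acts on gamma-hydroxybutyrate, had 5.67, 1.45 and 0.799 CPM (wild type) against 10.8, 6.53 and 7.497 CPM (libraries labelled knockout), with an edgeR log2 fold change of 1.604 and an adjusted p of 0.637. Maob, a monoamine oxidase of astrocytes in the putrescine route, had 5.29, 0.816 and 0.228 CPM (wild type) against 9.27, 4.25 and 6.47 CPM (libraries labelled knockout), with an edgeR log2 fold change of 1.59 and an adjusted p of 0.648. Aldh1a1, an aldehyde dehydrogenase also known to make GABA, had a log2 fold change of 1.37 (edgeR adjusted p = 0.71). With wild type replicate 1 left out all 3 were called, at edgeR adjusted p-values of 0.0378, 0.0441 and 0.0282. Akr7a5, a succinic semialdehyde reductase, and Ogdh, a subunit gene of the oxoglutarate dehydrogenase complex, had log2 fold changes of -0.22 and -0.04.

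Genes that supply glutamate and glutamine had 13 tested members with a median log2 fold change of 0.15, or 0.33 without wild type replicate 1, 10 positive. The 3 smallest p-values belonged to carriers, with log2 fold changes for Slc38a3, the glutamine exporter gene of astrocytes, of 1.75, Slc1a1, a neuronal glutamate transporter gene, of 1.315 and Slc1a3, an astrocytic glutamate transporter gene, of 1.29 (edgeR adjusted p = 0.637 for each). Slc1a2, the main glutamate transporter gene of astrocytes, was called with wild type replicate 1 left out (log2 fold change 4.04, edgeR adjusted p = 0.0243). Glul, the glutamine synthetase gene, had a log2 fold change of 0.10 ± 0.28 (SE).

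Cotransporters related to Slc12a2 and their kinases had 3 of 11 tested genes with positive log2 fold changes and a median of -0.20, or -0.18 without wild type replicate 1 and 0.01 without wild type replicate 4. Slc12a9 had 163.5, 227.3 and 189.9 CPM (wild type) against 129.6, 141.7 and 173.5 CPM (libraries labelled knockout), with an edgeR log2 fold change of -0.38 and an adjusted p of 0.637. Slc12a4, the KCC1 gene, had a log2 fold change of 0.34 (edgeR adjusted p = 0.638), and Wnk2, a kinase gene of the family that responds to chloride, 0.81 (edgeR adjusted p = 0.657). Wnk1, the most abundant of these kinases per kb of exon, had a log2 fold change of -0.25 ± 0.24 (SE), and Stk39 and Oxsr1, whose products SPAK and OSR1 act on NKCC1 and KCC2, had log2 fold changes of -0.06 and -0.08. Chloride and bicarbonate genes had 11 tested members with a median log2 fold change of 0.48, or 0.31 without knockout replicate 5, 8 positive, with log2 fold changes for the anion channel gene Ano1 at 1.30 from at most 1.25 CPM, Car2, a carbonic anhydrase gene of glia, at 1.29 and Slc4a3, a chloride and bicarbonate exchanger gene, at 0.67 (edgeR adjusted p = 0.637 for each). With wild type replicate 1 left out Car2 passed (edgeR adjusted p = 0.0371).

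Genes of GABAergic fate, nearly all for transcription factors and in part also in the GABAergic marker list, had 14 of 14 positive log2 fold changes and a median of 0.52, beside 46.3% positive over all genes tested, with edgeR calling 0 of 14 and 0 of 14 at an unadjusted p under 0.05. Dlx1 had 47.2, 53.9 and 176.5 CPM (wild type) against 182.3, 125.7 and 95.2 CPM (libraries labelled knockout), the library order of Gad2. Nr2f2, Sox6 and Sp9, regulators of interneuron development, had log2 fold changes of 0.64, 0.74 and 0.64 (edgeR adjusted p = 0.638, 0.652 and 0.715). The median was 1.41 without wild type replicate 4 and 0.20 without wild type replicate 1, when 11 of 14 were positive. Of 6 genes for vesicular transporters of other transmitters, Slc17a6, Slc17a7 and Slc18a2 were tested, with log2 fold changes of 0.02, 0.49 and 0.50 (edgeR adjusted p = 0.995, 0.841 and 0.859).

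**Figure D5:**
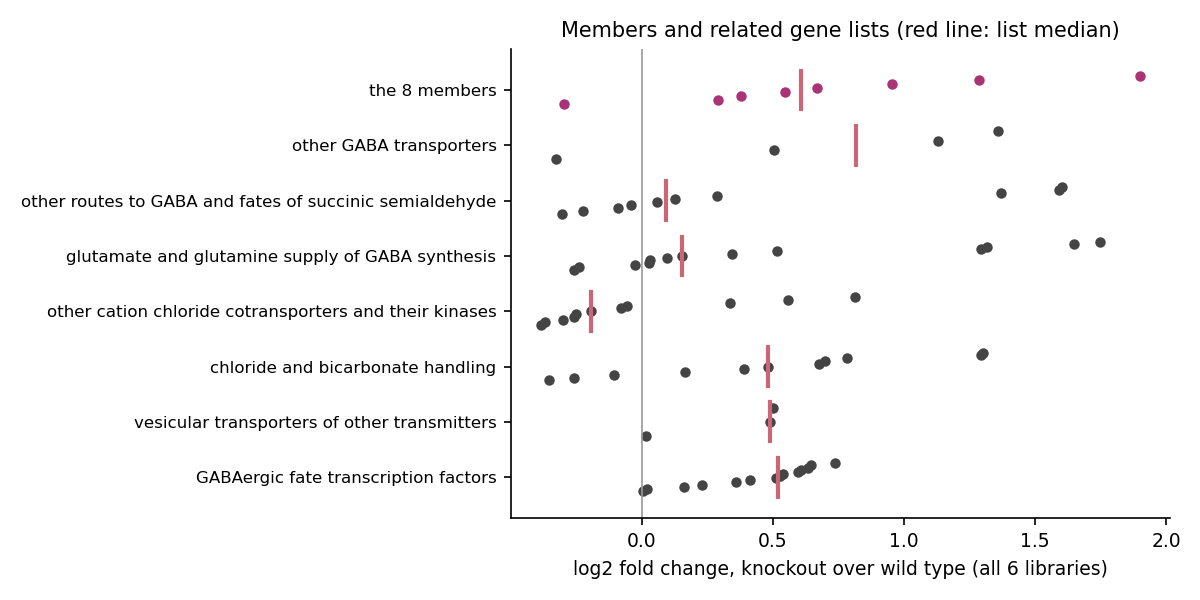
Log2 fold change, knockout over wild type with all 6 libraries, of each tested gene in the 8 members and in the 7 related lists (1 point per gene, red line at the list median). The members' median is 0.61, and the 14 genes of GABAergic fate lie to the right of 0, from 0.01 to 0.74.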

How the data were processed

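RNA sequencing of 6 cortical libraries, 3 per genotype, was analysed from the deposited raw counts per gene, 1 table per library, which the authors had neither normalized nor pooled. Per the submitters' processing notes, Trim Galore 0.60, STAR 2.7, HTSeq 1.31 and mm10 were used. The sources used here do not name the annotation release, the strand setting or how reads with several alignments were treated. Stranded libraries were made from total RNA, per the labels' protocols. The 5 summary lines of each file name no gene and were left out. They held reads outside genes (40.0% to 58.2%) and ambiguous reads (1.94% to 14.5%). Gene names, positions and exon lengths came from GENCODE M21 on GRCm38 (53274 of 53379 identifiers matched), and promoter sequences from RefSeq on GRCm38.p6.

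Genotypes were compared with edgeR 4.0.16 in R 4.3.3 (quasi-likelihood F-test, TMM, default filter by group, robust shrinkage, Benjamini-Hochberg adjustment over 17221 genes, threshold 0.05), which was tested on simulated data first. Standard errors derive from the F statistic. Within-library ratios had 0.5 added to each count and were compared by two-sided exact permutation over libraries. Libraries of a group differed by a chi-square per degree of freedom of at least 49.9 and each counted as 1 sample. Alternatives used DESeq2 1.42.0, limma-voom from limma 3.58.1, other scalings, filters and gene sets, and left libraries out.

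Named genes were the 8 members, the 3 genes most correlated with each, and, per related list, those called and up to 3 with the smallest p. Other list genes named, such as Slc1a2, Slc6a12, Akr7a5, Ogdh, Glul, Wnk1, Stk39 and Oxsr1, and the markers given for cell identity were chosen after their values were seen. The members and lists were chosen with earlier results of these data known. Some list genes and 1 of the 3 ratios tested are not reported here.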

Additional observations from a re-analysis of the deposited data

How the results depend on the processing

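No member passed in 16 of 17 alternatives; with 1 library left out the number called ran from 0 to 2, and it was 2 without wild type replicate 1, where wild type rested on replicates 3 and 4, the libraries with the fewest astrocyte transcripts. The 2 were Slc6a11 and Abat. Of 136 member fold changes under an alternative, 130 kept direction and side of the threshold. Direction reversed in 4, none of them called. Gad1 ran from -0.03943 (wild type replicate 1 left out) to 1.265 (wild type replicate 4 left out), and was -0.0037 or -0.0153 with wild type replicate 3 or knockout replicate 5 left out. Slc12a5 ran from -0.03893 (wild type replicate 4 left out) to 1.514 (wild type replicate 1 left out). The causes were not tested. The 3 within-library ratios kept their direction in all 27 alternatives, although a permutation of 3 against 3 libraries cannot reach 0.05. Part of that count was fixed in advance. A change of transcript length shifts every library alike and cannot reverse a difference. Leaving libraries out cannot reverse the Gad2 to Gad1 difference, since its groups did not overlap. Ranked by Spearman's rho in place of Pearson's r, 55 to 202 genes tied at the highest rho of 1 with a given member, so that measure names no closest gene. Over all genes, edgeR called 1 higher and 0 lower with all libraries, and 306 and 15 with wild type replicate 1 left out, 5 and 1 with knockout replicate 7 left out, 3 and 0 with wild type replicate 4 left out, and 4 and 1 with no filter on low counts. It called 0 among protein-coding genes alone (1048 at an unadjusted p under 0.05) and 0 with wild type replicate 3 and knockout replicate 6 left out together (470 at an unadjusted p under 0.05), and DESeq2 called 15 and 6. Library totals alone shifted the median of all genes to 0.11. No paired analysis was possible because the groups share no replicate numbers. Levels under about 1 CPM rest on few counts and limit what can be seen for Slc6a12 and the interneuron class markers.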
